A study of Saccharomyces cerevisiae with 63 samples.

Results

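The transcripts described here are those of the cytosolic ribosomal protein genes of budding yeast, the proteins of the ribosomes that translate nuclear messages. Genes were taken by name: a name of RPL or RPS, a number and an optional final A or B, or one of the stalk genes RPP0, RPP1A, RPP1B, RPP2A and RPP2B. This gave 114 of the 6088 genes in the table, of which 47 encode small-subunit, 62 large-subunit and 5 stalk proteins. The names fell into 70 families, 44 of which had both an A and a B copy among the members and 26 of which had 1 member. In 7 of these 26 the name of that member ends in A or B. No gene named RPL1, RPL2, RPL4, RPL7, RPL40, RPL41, RPS4 or RPS6, with or without a final letter, was among the members. They are thus not the full set. Another 4 ribosomal protein loci stood in the table under other names, lay outside the rule and were kept out of all counts: RPS11B, RPL42B, RPS19A and RPS30B. The choice used names alone, and no measured value.

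Ribosomal protein genes are among the most strongly transcribed genes of a growing yeast cell. Their transcription is driven by Rap1 with Fhl1, Ifh1 and Sfp1 under the TOR and protein kinase A pathways, and it is shut down together when nutrients run out. Most of them survive from an ancient duplication of the whole genome as paired copies, named A and B, whose proteins are nearly or fully identical while their promoters, introns and levels differ.

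Polyadenylated RNA was sequenced from diploid yeast of the SK1 background in 3 strains, a control called WT, an ime4 mutant and a pho92 mutant, whose alleles the labels do not spell out. All strains, WT included, carried IME1, the gene that starts meiosis, under a copper-inducible CUP promoter (pCUP-IME1). Cells were shifted from a pre-sporulation medium to potassium acetate sporulation medium (SPO) at 0 h, 50 µM copper sulfate was added at 2 h, and cells were collected at 0, 2, 3, 5, 6, 7 and 9 h. IME4 encodes the catalytic subunit of the m6A methyltransferase that acts on mRNA in meiosis, and PHO92 encodes a protein that reads m6A. There were 3 libraries, called biological replicates in the design, for every strain at every time, which makes 21 groups and 63 libraries. The time 0 h is that of the shift, so the 2 h samples were starved and had not yet received copper.

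Libraries held 12826747 to 33048881 counts. Every one of the 114 genes passed the filter on low counts, none had a count of 0 in any library, and the lowest single count was 4. At 3 h the level of IME4 was 342 ± 20.04 CPM (counts scaled to a common library size; SD, n = 3) in WT and 0.184 ± 0.0625 in ime4, and that of PHO92 was 1086 ± 46.8 in WT and 0.215 ± 0.231 in pho92. Of 6 meiotic genes checked, 5 rose and 1 fell in WT from 0 to 2 h, before copper (median log2 change 3.221). From 2 to 3 h 5 rose and 0 fell (2.499). Of all genes 26.6% rose and 30.4% fell in the first step and 36.3% and 29.3% in the second. The mean of IME1 in WT was 2209 CPM at 0 h, 3428 at 2 h and 2727 at 3 h. Meiotic transcripts were thus already up before copper. The summed level of 7 haploid or mating genes, checked because the cells should be diploid, ran from 54.4 CPM at 0 h to 307 at 7 h in WT, from 68.5 at 0 h to 251 at 9 h in ime4 and from 67.5 at 0 h to 191 at 7 h in pho92. From 3 to 6 h in WT 4 of them rose and 0 fell, and from 6 to 9 h 1 rose and 5 fell. Of all genes 33.5% rose and 43.0% fell in the first of these steps and 34.0% and 45.9% in the second. Most called ribosomal protein genes rose in both steps. The part of such cells or messages in the results was not tested.

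As a share of all counts, ribosomal protein transcripts fell, rose weakly, fell again and returned in WT, and did not return in the mutants within 9 h. In the 3 WT libraries they held 2.18, 2.27 and 2.76% of counts at 0 h and 1.16, 1.94 and 1.37% at 2 h. At 3 h they held 0.295, 0.314 and 0.317%, at 5 h 0.507, 0.909 and 0.708%, at 6 h 0.168, 0.227 and 0.328%, and at 7 h 0.130, 0.125 and 0.120%. At 9 h they held 1.79, 1.36 and 1.21%. The 3 and 7 h libraries lay below all 2 h libraries, those at 5 h lay above those at 3, 6 and 7 h, and those at 9 h overlapped those at 2 h but stayed below those at 0 h. In bulk samples, fewer cells that make these messages and less of them per cell cannot be told apart.

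In both mutants the share also went down after the shift, and at 9 h it stood below that of WT. In ime4 the share at 0, 2, 3 and 5 h was 2.80% ± 0.625, 1.49% ± 0.199, 0.529% ± 0.132 and 1.003% ± 0.0643 (SD, n = 3). It was 0.596, 0.815 and 0.308% in the 7 h libraries of ime4 and 0.160, 0.196 and 0.133% at 9 h. In pho92 the corresponding shares were 2.23% ± 0.551, 0.963% ± 0.348, 0.438% ± 0.0734 and 0.767% ± 0.110, then 0.216, 0.263 and 0.428% at 7 h and 0.321, 0.250 and 0.277% at 9 h. All 9 h libraries of both mutants lay below all 9 h libraries of WT. The log2 ratio of the mean share at 9 h to that at 7 h was 3.53 in WT, −1.81 in ime4 and −0.10 in pho92. The shares are sums over the chosen genes and are given as a description with no test. The tests below are on single genes.

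**Figure D1:**
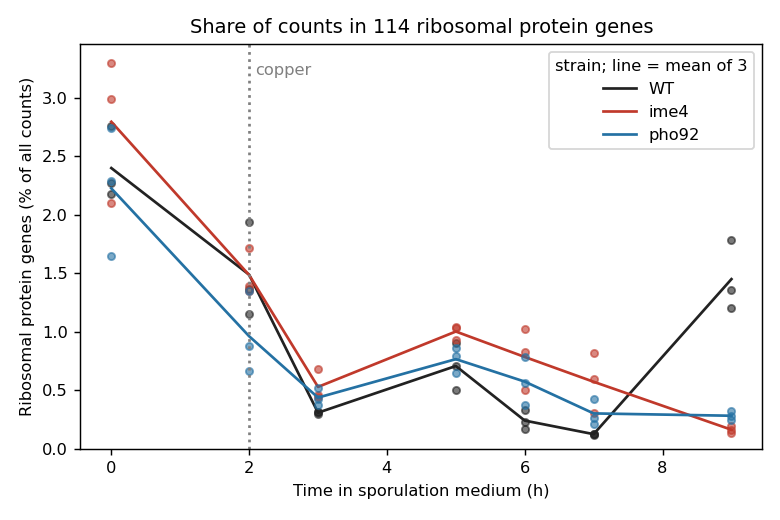
Percent of all counts held by the 114 ribosomal protein genes against hours in sporulation medium, for WT, ime4 and pho92. Points are libraries, lines join the means of 3 and the vertical line marks copper at 2 h; WT falls to a mean of 0.125% at 7 h and returns to 1.45% at 9 h, where ime4 is at 0.163% and pho92 at 0.283%.

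The members differed widely in level before they differed in course. Over all WT libraries the median member stood at 172 CPM per kb of coding length and the median gene of the table at 57.2. On that per-length scale the highest were RPL10, whose protein is needed for the subunits to join, at 640, RPL30 at 513, RPS8A at 504, RPS31, which is made fused to ubiquitin, at 490.5, and RPL3, which lies near the peptidyl transferase centre, at 476. The lowest were RPS9A at 19.1, RPL22B at 28.8, RPL35B at 29.7, RPL11B at 36.9 and RPL14B at 40.5 CPM per kb. All 5 of the lowest are one copy of a pair, whereas the 5 highest include 4 genes with no suffix. However, RPL35, RPL11 and RPL14 are the pairs whose copies share the most 50-base windows, the length of a read (80.6%, 60.9% and 42.1%). The levels of RPL35B, RPL11B and RPL14B are therefore uncertain, and the part of reads that match both copies was not tested.

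The hour after copper, from 2 to 3 h, was the step that moved nearly all of them. In WT 113 of 114 genes fell and 1 rose, with a median log2 fold change of −2.82, where 29.3% of all 5822 genes tested fell and 36.3% rose with a median of 0.10. The median member went from 92.2 to 14.3 CPM. Small-subunit genes (median −2.88, 47 of 47 lower), large-subunit genes (−2.81, 61 of 62 lower) and stalk genes (−2.97, 5 of 5 lower) had like medians. So had the 74 genes with an intron (−2.81) and the 40 without (−2.99), and the A (−2.81) and B (−2.76) copies of pairs.

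The same hour brought a fall in 113 members and a rise in 1 in ime4 (median −1.91; 27.4% and 30.5% of all genes) and a fall in 109 and a rise in 1 in pho92 (−1.60; 26.5% and 30.4%). The gene that rose was RPL15B in each strain.

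The deepest fall in this step was that of RPS1B, a small-subunit gene. It had 120, 232 and 171 CPM in the WT libraries at 2 h and 11.3, 11.9 and 11.98 at 3 h, with no overlap (log2 fold change −3.90, SE 0.44, adjusted p = 1.23e-10). RPL21A (−3.75, SE 0.41) and RPS24B (−3.63, SE 0.41) were next, although the A and B copies of RPS24 share long stretches of sequence. The shallowest falls were those of RPL23A (−0.88, SE 0.22), RPS28A (−0.63, SE 0.22) and RPL18B (−0.55, SE 0.17), each with an adjusted p under 0.05 (0.000392, 0.0113 and 0.00486).

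The single gene that rose was RPL15B (YMR121C, chromosome XIII, 509734 to 510348, minus strand, R64), the second copy of the gene for a large-subunit core protein. It had 32.9, 31.2 and 27.1 CPM at 2 h and 104.5, 84.1 and 102.5 at 3 h in WT (log2 fold change 1.67, SE 0.13, adjusted p = 1.8e-15). Its partner RPL15A (YLR029C, chromosome XII, 201976 to 202590, minus strand) had 179.6, 309 and 208 CPM at 2 h and 27.8, 29.8 and 26.0 at 3 h (−3.06, SE 0.34, adjusted p = 1.01e-10). The copies thus changed places: every 2 h library had more of A and every 3 h library more of B. RPL15B also rose in this hour in ime4 (1.70, SE 0.13, adjusted p = 1.04e-15) and in pho92 (1.60, SE 0.13, adjusted p = 9.34e-15). Both genes were named in an earlier account of these data, which gives no independent support, and neither gene contains an intron. The coding sequences of the copies are 93.2% identical, and 11.8% of their 50-base windows, the length of a read, occur in both.

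The stretches that hold 250 bases before the coding start and the first 50 coding bases of both copies are printed because this pair carries the clearest divergence. They were cut from the R64 genome and are written 5′ to 3′ on the strand of the gene, with capitals for matches on either strand to part of the Rap1 site (ACCCNNACA), the Fhl1 element (GACGCA), PAC (GCGATGAG), RRPE (AAAATTTT) and URS1 (CGGCGGCTA), where GACGCA and AAAATTTT can share a base. Windows of 7 genes were looked at and these 2 were chosen after the matches had been seen; 5 of the 7, RPL15B among them, held none of these motifs.
RPL15A chrXII:202541-202840 minus strand: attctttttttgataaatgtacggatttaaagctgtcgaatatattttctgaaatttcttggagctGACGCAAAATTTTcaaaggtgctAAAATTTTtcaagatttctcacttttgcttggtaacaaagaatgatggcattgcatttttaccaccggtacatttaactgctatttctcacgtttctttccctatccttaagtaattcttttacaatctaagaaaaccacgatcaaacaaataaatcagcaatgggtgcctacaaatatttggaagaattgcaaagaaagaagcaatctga
RPL15B chrXIII:510299-510598 minus strand: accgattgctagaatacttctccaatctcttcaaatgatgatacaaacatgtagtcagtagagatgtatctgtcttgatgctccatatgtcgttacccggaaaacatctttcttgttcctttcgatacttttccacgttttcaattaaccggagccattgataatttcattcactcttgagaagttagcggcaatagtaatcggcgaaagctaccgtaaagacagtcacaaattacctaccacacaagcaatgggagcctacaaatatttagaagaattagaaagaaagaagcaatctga
RPL15A held 1 GACGCA and 2 AAAATTTT, the first of which overlaps the GACGCA, and RPL15B held none. GACGCA stood in this window in 8.77% of the 114 members and in 6.28% of all 6001 promoters, and AAAATTTT in 7.02% and 9.03%. A match or its lack describes these letters only.

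The other motifs were likewise sparse in this window. The Rap1 part ACCCNNACA was in 8.77% of members and 2.83% of all promoters, PAC in 0.877% and 3.93%, the stress element STRE (AGGGG) in 15.8% and 21.6%, and URS1, the site of the meiotic repressor Ume6, in 0% and 0.433%. In a window of 500 bases before the start, chosen after the first window had been read, ACCCNNACA was in 44 of 114 members (38.6%) and in 5.47% of all genes. The 50 matches in members lay 162 to 498 bases before the start with a median of 322.5. The 6 windows of 30 bases below were picked, after the matches had been seen, from genes and copies whose courses are described further on, to show the letters with their match in capitals, on the strand of the gene (in RPL9A the match is on the other strand).
RPL33A chrXVI:281758-281787 plus strand: acctctttacACCCTTACActtcctttgat
RPL33B chrXV:779856-779885 minus strand: gcctgtataaACCCATACAatcagcccata
RPL9A chrVII:228620-228649 minus strand: tttccagaaaTGTTTGGGTttattttttaa
RPS7A chrXV:505294-505323 plus strand: aaACCCATACAcaatgaaccttatcacacc
RPL22B chrVI:65158-65187 minus strand: ccatgtcaacACCCGTACAtattcagagat
RPL38 chrXII:781629-781658 minus strand: attttcataaACCCACACAattaaaatgcc
The matches begin 354 bases before the start in RPL33A, 470 in RPL33B, 310 in RPL9A, 498 in RPS7A, 245 in RPL22B and 269 in RPL38. Genes of both kinds of course, those that followed the rest and those that did not, thus held the letters.

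The course over 9 h was shared by most members. Over the 21 WT libraries the log2 CPM of a member correlated with the median of the other members with a median Pearson r of 0.955, and 89 of 114 genes were over 0.9. These coefficients are a description, since all genes share the libraries, their depth and their 7 times. The genes nearest to the common course were RPL32, at 0.997, and RPS11A, at 0.995. In WT 69 members had their highest mean at 0 h and 37 at 9 h, and 61 had their lowest at 7 h and 44 at 3 h.

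**Figure D2:**
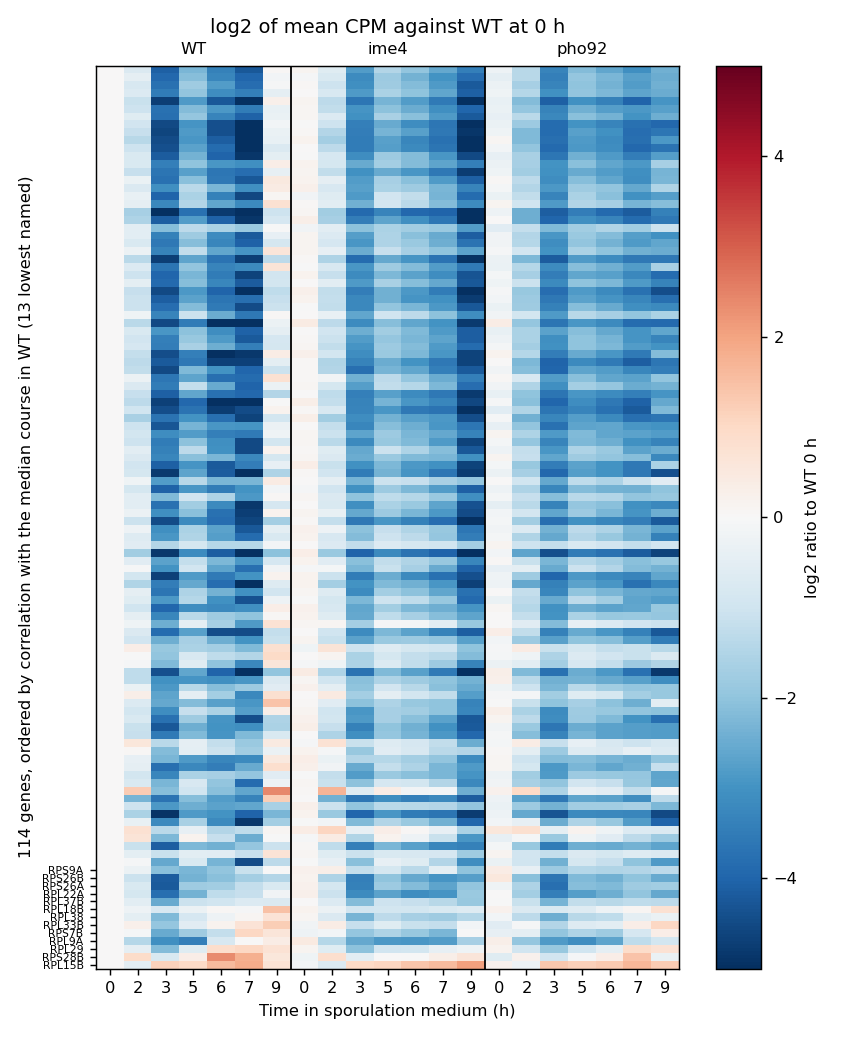
Log2 of the mean CPM of each of the 114 genes at each time in WT, ime4 and pho92 relative to WT at 0 h, with genes in rows ordered by their correlation with the other members in WT. Most rows are low at 3 h in every strain and, in WT, are high again at 9 h, and RPL15B, at the end of the order with r = −0.79, runs opposite.

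Before copper the move was smaller and less uniform. From 0 to 2 h in WT 69 members fell and 4 rose (median −0.74), against 30.4% and 26.6% of all genes. In ime4 82 fell and 5 rose (−0.96; 28.2% and 25.9% of all genes), and in pho92 99 fell and 1 rose (−1.32; 26.9% and 29.4%). The stalk genes fell in 5 of 5 cases in WT (median −1.13 on the log2 scale, −1.125 before rounding), and 31 of 47 small-subunit and 33 of 62 large-subunit genes fell. Without WT replicate 3 the 73 calls in WT became 33 and without WT replicate 1 it became 41. With libraries scaled on total counts it became 42.

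Between the lows of 3 and 7 h lay a partial return at 5 h. In WT 105 members were higher in all 3 libraries at 5 h than in all 3 at 3 h and 1 was lower, against 32.8% and 36.1% of all genes, with a median ratio of means of 2.83. From 5 to 6 h 81 were lower without overlap and 8 higher (45.4% and 35.1% of all genes; median ratio 0.492), and from 6 to 7 h 56 were lower and 13 higher (33.1% and 30.2%; 0.6455). The same early return was present in the mutants, where 102 members in ime4 and 98 in pho92 were higher without overlap at 5 h than at 3 h (23.3% and 27.6% of all genes). These single steps were chosen after the course had been seen and carry no test.

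From 3 to 6 h in WT, the tested step over this middle phase, 45 members rose and 2 fell (median 0.50), against 33.5% and 43.0% of all genes, whose median was −0.19. The direction depends on the scaling: with total counts alone the median of all genes moved by −1.10 and 9 members rose and 42 fell (median −0.58), so relative to all genes members stood higher by 0.71 and, with the main scaling, by 0.69. Of all 5822 genes 965 rose and 4149 fell with total counts. RPS28B (3.13, SE 0.27, adjusted p = 2.3e-14), RPL29 (3.05, SE 0.32, adjusted p = 1.39e-11) and RPS26A (2.48, SE 0.26, adjusted p = 1.41e-11) rose most. The 2 that fell were RPS10B (−0.98, SE 0.23, adjusted p = 0.000213) and RPL30 (−0.77, SE 0.35, adjusted p = 0.0411), and the call of RPL30 was lost under DESeq2, under RLE scaling and without any 1 WT replicate. The smallest rises, of RPL9B (0.55), RPS28A (0.54) and RPL15B (0.44), changed sign with total counts (−0.55, −0.54 and −0.67). Without WT replicate 3 the count of 47 became 29.

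In the mutants the same span had 46 rises and 0 falls in ime4 (median 0.61; 15.3% and 16.1% of all genes) and 66 rises and 0 falls in pho92 (0.74; 24.3% and 27.7%). Without ime4 replicates 1 and 2 in turn the ime4 count became 13 and 21, and without pho92 replicate 2 the pho92 count became 27. With total counts each became 22.

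The return of ribosomal protein transcripts from 6 to 9 h was the widest rise in WT. Of the 114 genes 109 rose and 2 fell with a median log2 fold change of 2.46, against 34.0% and 45.9% of all genes, whose median was −0.28. RPL30, whose protein represses splicing of its own transcript, had 7.92, 8.85 and 14.01 CPM in the WT libraries at 6 h and 473, 448 and 408 at 9 h (log2 fold change 5.43, SE 0.40, adjusted p = 7.26e-17). The small-subunit genes RPS17B (5.37, SE 0.41, adjusted p = 4.04e-16) and RPS12 (4.91, SE 0.41, adjusted p = 6.35e-15) were next, and no 6 h library overlapped a 9 h library for any of these 3. The least called rises were those of RPL38 (0.94, SE 0.26), RPL26A (0.79, SE 0.24) and RPL5 (0.69, SE 0.31, adjusted p = 0.0384), and without WT replicate 1 the value of RPL5, which binds the small ribosomal RNA of the large subunit, became 0.09. The genes that fell were RPS28B and RPL15B, and RPL29 (−0.15, adjusted p = 0.641), RPL37B (0.31, adjusted p = 0.179) and RPS26B (0.65, adjusted p = 0.0673) did not pass the test. Medians were 2.40 for small-subunit, 2.51 for large-subunit and 1.43 for stalk genes.

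A set of 8 genes stood furthest from the common course, with r under 0.6 in WT: RPL15B (−0.79), RPS28B (−0.24), RPL29 (0.17), RPL9A (0.39), RPS7B (0.41), RPL33B (0.45), RPL38 (0.55) and RPL18B (0.57). Of these, 6 are a copy of a pair with the partner among the members, and RPL29 and RPL38 have no suffix. All but RPL15B fell from 2 to 3 h in WT, by log2 values of −0.55 (RPL18B) to −2.46 (RPS7B, SE 0.34).

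RPS28B (YLR264W, chromosome XII, 673131 to 673334, plus strand) encodes a small-subunit protein that is known to feed back on the decay of this transcript. In WT it had 7.01, 7.55 and 6.75 CPM at 3 h. It then had 17.75, 16.1 and 11.9 at 5 h, 59.8, 63.7 and 62.6 at 6 h and 31.8, 41.8 and 48.3 at 7 h. At 9 h it had 22.2, 15.0 and 15.5. The 6 h libraries lay above all other WT libraries of this gene. From 6 to 9 h it fell by 1.82 on the log2 scale (SE 0.25, adjusted p = 1.1e-08), while its partner RPS28A went from 62.0 ± 16.1 to 146 ± 10.3 CPM (SD, n = 3). In the mutants the 6 h peak was not seen: at that time ime4 had 12.9, 12.6 and 9.93 CPM and pho92 17.7, 12.5 and 15.4, all below the 3 WT libraries (−2.39, SE 0.26, adjusted p = 1.66e-11, and −2.03, SE 0.25, adjusted p = 5.42e-09). At 9 h ime4 did not differ from WT by the test (0.06, adjusted p = 0.841) and pho92 was lower (−0.90, SE 0.26, adjusted p = 0.00357). In pho92 the highest mean came at 7 h, at 32.2 ± 3.35 CPM. The start of this gene lies 307 bases from RED1, a meiotic axis gene on the same strand upstream with 951 CPM in WT at 3 h and 490 at 6 h, and the part of reads from it was not tested.

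RPL29 (YFR032C-A, chromosome VI, 223258 to 223437 in R64, minus strand) encodes a small protein at the face where the subunits meet. In WT it had 12.8, 11.9 and 13.5 CPM at 3 h, 81.3, 114 and 119 at 6 h, 104, 129 and 117 at 7 h and 90.4, 98.5 and 94.4 at 9 h. It thus reached its late level by 6 h, when the median member stood at 21.5 CPM. At 6 h ime4 had 36.5, 33.7 and 21.3 CPM and pho92 45.3, 41.2 and 39.4, all below the 3 WT libraries (−1.78, SE 0.31, adjusted p = 1.31e-06, and −1.32, SE 0.30, adjusted p = 0.000178). At 7 h pho92, with 153, 97.6 and 77.5 CPM, overlapped WT, while ime4, with 50.7, 44.0 and 33.9, did not. The next gene downstream on the same strand, RRT5, lies 298 bases away and had 1.85 CPM in WT at 0 h and 23497 at 7 h; the part of its reads in the level of RPL29 was not tested.

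RPL9A (YGL147C, chromosome VII, 227754 to 228329, minus strand), a large-subunit gene, rose more from 3 to 6 h (2.24, SE 0.26, adjusted p = 1.1e-10) than its partner RPL9B (0.55, SE 0.22, adjusted p = 0.0221), whose means were 42.4, 74.99, 61.85 and 51.4 CPM at 3, 5, 6 and 7 h. In WT it had 13.9, 8.60 and 9.34 CPM at 5 h, 81.2, 64.5 and 49.0 at 6 h, 129, 114 and 103 at 7 h and 174, 145 and 130.5 at 9 h. At 6 h ime4 had 14.8, 16.5 and 14.7 CPM and pho92 25.6, 14.5 and 15.1 (−2.08, SE 0.26, adjusted p = 6.66e-10, and −1.83, SE 0.25, adjusted p = 4.78e-08). Both mutants remained below WT at 9 h, by −2.04 (SE 0.25) in ime4 and −1.29 (SE 0.25) in pho92. RRT6, 421 bases upstream of RPL9A on the same strand, had 22.2, 113, 152 and 84.2 CPM in WT at 5, 6, 7 and 9 h. The part of its reads in the level of RPL9A was not tested.

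RPS7B, RPL33B and RPL38 also rose before 9 h in WT. RPS7B (YNL096C, chromosome XIV, 443398 to 444315) had 69.1, 32.0 and 26.9 CPM at 6 h and 236, 191 and 172 at 7 h in WT, so its 7 h libraries lay above the rest of the course, except that 1 of 3 at 9 h, at 179.5, fell among them. At 7 h it had 22.3, 24.0 and 13.6 CPM in ime4 (−3.32, SE 0.35, adjusted p = 1.08e-11) and 75.7, 51.5 and 35.8 in pho92 (−1.88, SE 0.34, adjusted p = 5.51e-06). RPL33B (YOR234C, chromosome XV, 778555 to 779405) had means of 10.8 ± 1.66, 47.4 ± 5.62, 66.1 ± 4.65 and 96.2 ± 3.52 CPM at 3, 6, 7 and 9 h, and RPL38 (YLR325C, chromosome XII, 781143 to 781379) 17.3 ± 2.51, 67.7 ± 10.4, 85.3 ± 11.9 and 130.5 ± 16.1. RPL18B (YNL301C, chromosome XIV, 63570 to 64562) was set apart by how little it moved before 9 h, with means of 25.5 to 45.4 CPM at every time from 0 to 7 h and 123 ± 6.77 at 9 h. Near 3 of these genes stand messages that were high at 7 h in WT: YNL095C, 596 bases upstream of RPS7B on the same strand (955 CPM), KIN4, 306 bases downstream of RPL33B on the opposite strand (408), and PEX30, 356 bases downstream of RPL38 on the opposite strand (1175). Their part was not tested.

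**Figure D3:**
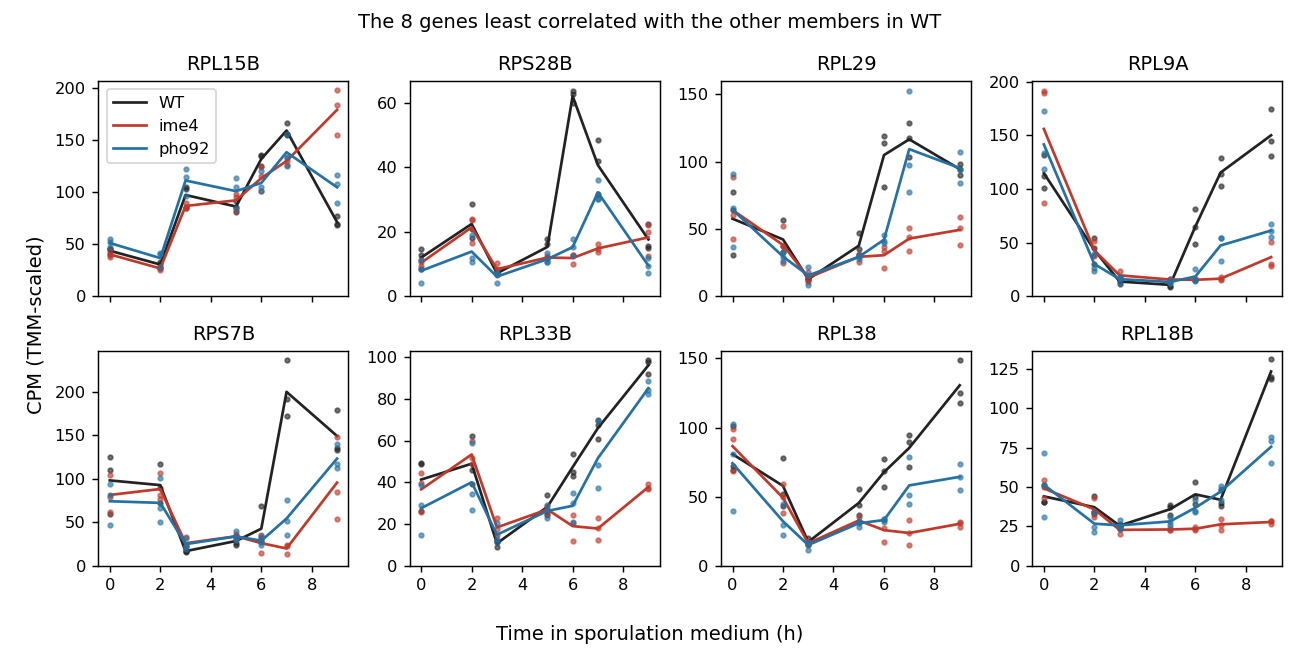
CPM of the 8 genes with the lowest correlation with the other members in WT, against hours in sporulation medium, with WT, ime4 and pho92 in separate colours. Points are libraries and lines join the means of 3; RPL15B rises where others fall, and RPS28B peaks at a mean of 62.0 CPM at 6 h in WT alone.

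The A and B copies were compared by their ratio within each library, which does not depend on the scaling. The log2 ratio of A to B counts was fitted with limma over all 52 such pairs of the table, 44 of them ribosomal. In WT the ratio changed in 33 of 44 pairs from 2 to 3 h (17 toward A, 16 toward B; 73.1% of the 52 pairs), in 27 from 3 to 6 h (13 and 14; 57.7%) and in 33 from 6 to 9 h (19 and 14; 69.2%). No direction was common to the copies. Since 44 of the 52 pairs are ribosomal, the background is mostly these same genes. By the WT means at each time, with no test, the copy with more counts differed between times in 25 of 44 pairs. A led throughout in 11 and B in 8. Some of the 25 only just crossed 50%, such as RPL36, with at most 50.01% A, and RPS28, with at least 49.41% A. The share of A ranged over 7.96 to 73.5 percentage points with a median of 31.2.

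RPL15 moved furthest. The A copy held 91.3, 91.8 and 92.0% of the pair's counts in the WT libraries at 0 h, 20.99, 26.2 and 20.3% at 3 h and 80.3, 74.6 and 69.9% at 9 h. The log2 ratio fell by 4.69 from 2 to 3 h (SE 0.34, adjusted p = 3.96e-16), did not pass the test from 3 to 6 h (−0.01, adjusted p = 0.984) and rose by 3.40 from 6 to 9 h (SE 0.34, adjusted p = 3.57e-12). In ime4 the A copy held 8.95, 9.39 and 8.92% at 9 h, and in pho92 25.7, 23.0 and 27.1%, against a lowest WT library of 69.9%.

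RPS7 and RPL33 also had a wide range, each with more A at 0 h and more B at 7 h in WT. RPS7, a small-subunit family, ran from 74.9% ± 4.83 A at 0 h to 4.06% ± 0.440 at 7 h, and back to 69.9% ± 0.564 at 9 h (log2 change from 6 h 2.66, adjusted p = 8.76e-09). RPL33 held 73.2% ± 1.63 A at 3 h, 34.7% ± 8.23 at 6 h and 16.6% ± 2.73 at 7 h, and its shift came from 3 to 6 h (−2.38, adjusted p = 3.85e-10) and not in the hour after copper (0.07). In both pairs the B copy is one of the 8 genes set apart above. The pairs RPS7 and RPL33 share 0.763% and 0% of 50-base windows, so reads that match both copies are few.

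RPL24, RPL9, RPL21 and RPS22 were also among the 8 pairs with the widest range. RPL24 fell to 18.7% ± 7.30 A at 7 h and reached 77.0% ± 3.15 at 9 h (log2 change from 6 h 2.60, adjusted p = 1.52e-14). RPL9 went the other way, from 12.5% ± 3.66 A at 5 h to 69.1% ± 1.74 at 7 h, and its ratio rose from 3 to 6 h (1.68, adjusted p = 1.63e-06). RPL21 rose from 29.4% ± 0.553 A at 3 h to 81.2% ± 1.96 at 9 h, and RPS22 fell from 65.5% ± 2.04 at 2 h to 17.0% ± 9.84 at 7 h. The steadiest pair was RPS26, with 77.4% to 85.3% A, then RPL20 with 33.6% to 44.6% and RPS25 with 79.1% to 92.1%. RPS26A and RPS26B both rose from 3 to 6 h in WT (2.48 and 2.06), yet their ratio also changed by the test, by −0.40 from 2 to 3 h (SE 0.17, adjusted p = 0.0277) and 0.43 from 3 to 6 h (SE 0.17, adjusted p = 0.0232).

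**Figure D4:**
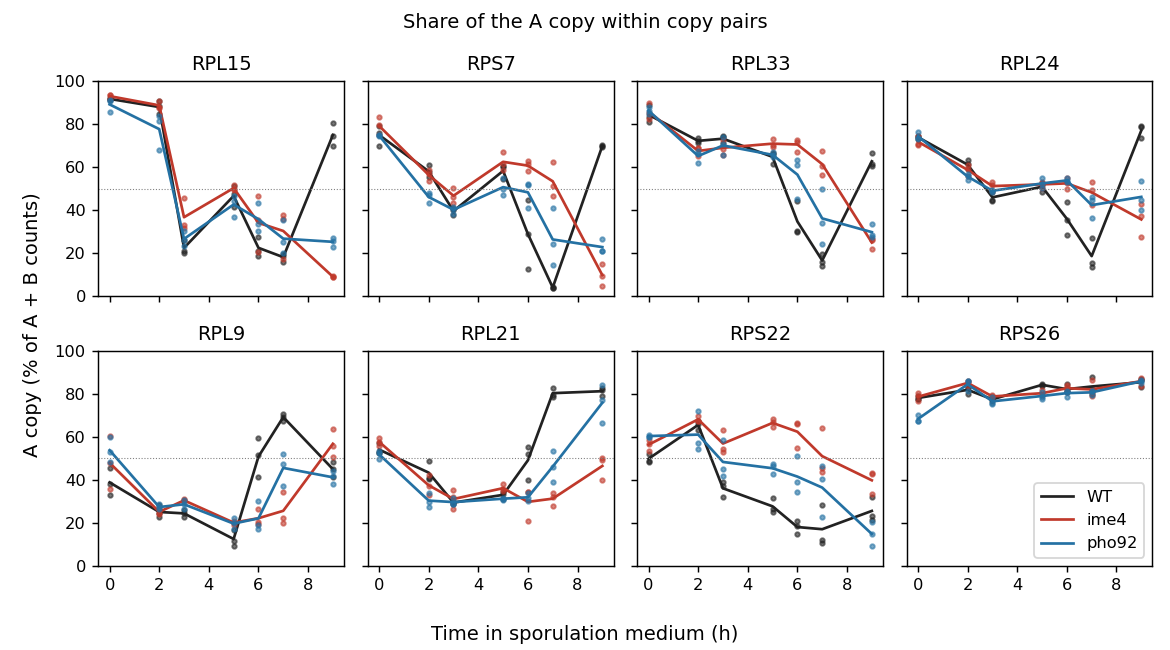
Percent of the counts of a pair that fell on the A copy, against hours in sporulation medium, for 7 of the 8 pairs with the widest range in WT and for RPS26, the steadiest. Points are libraries, lines join the means of 3 in WT, ime4 and pho92; RPL15 drops from 91.7% to 22.5% A between 0 and 3 h in WT, while RPS26 keeps between 77.4% and 85.3%.

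Averaged over 3 to 9 h, the copy ratio differed from WT in 31 of 44 pairs in ime4 (14 toward A, 17 toward B; 69.2% of the 52 pairs) and in 26 in pho92 (12 and 14; 53.8%). RPS22 was shifted toward A in ime4 by 1.98 (SE 0.16, adjusted p = 3.07e-15) and in pho92 by 0.81. RPL21 was shifted toward B by −1.28 in ime4 (SE 0.11, adjusted p = 1.66e-14) and by −0.76 in pho92. RPL15 was shifted toward B in ime4 (−0.40, adjusted p = 0.0169) and did not pass the test in pho92 (−0.29, adjusted p = 0.105). These means fold early and late times together, and both mutants were set against the same WT libraries. Coding sequences of the copies were 69.2 to 99.2% identical (median 92.3%) and the median pair shared 1.42% of its 50-base windows, but RPL35 shared 80.6%, RPL11 60.9% and RPL14 42.1%, so the separate values of those copies are uncertain.

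Before copper members were called between strains only in pho92 at 2 h. No member differed at 0 h in ime4 or pho92 or at 2 h in ime4 by edgeR. At an unadjusted p under 0.05 there were 0, 3 and 0 members, DESeq2 called 0 in each, and 0.155%, 10.9% and 5.67% of all genes were called higher and 0.103%, 7.15% and 6.7% lower. In pho92 at 2 h 33 members were lower and 0 higher (median −0.73; 3.9% and 8.47% of all genes), and 83 had an unadjusted p under 0.05. The count became 0 without WT replicate 2, 3 and 4 without pho92 replicates 1 and 2, 18 without WT replicate 3 and 60 without pho92 replicate 3. It was 53 by DESeq2, 2 with total counts and 0 when only the compared libraries were fitted.

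At 3 h members were higher in ime4 than in WT. Of the 114, 55 were higher and 0 lower (median 0.74), against 14.8% and 15.9% of all genes. RPL20A had 23.1, 34.1 and 21.04 CPM in ime4 and 9.44, 10.8 and 10.4 in WT, with no overlap (1.35, SE 0.25, adjusted p = 4.65e-05). RPL22B (1.46, SE 0.45), RPS22A (1.365, SE 0.40), RPS17B (1.32, SE 0.35) and RPL30 (1.32, SE 0.33) were the other largest, and RPL22 protein is known to be needed for translation of the IME1 message. The count became 10 without ime4 replicate 2 and 20, 25 and 27 without WT replicates 2, 1 and 3, and 96 when only the compared libraries were fitted. In pho92 8 were higher and 0 lower (median 0.46; 10.3% and 7.64% of all genes), led by RPS17B (0.98, SE 0.36, adjusted p = 0.0483), RPL20A (0.94, SE 0.25, adjusted p = 0.00663), RPL35B (0.90), RPS25B (0.86) and RPS27A (0.81). That count was 1 to 6 when any 1 replicate of a strain was left out at all its times. It was 63 when the libraries not being compared were kept out of the fit.

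The test of whether the fall from 2 to 3 h itself differed from that of WT called few. For ime4 0 members passed by edgeR, 55 had an unadjusted p under 0.05, DESeq2 called 2, and the median difference was 0.86 (0.412% of all genes higher and 0.447% lower). For pho92 2 fell less than in WT (median difference 1.17; 0.137% and 0.515% of all genes): RPP1A, of the ribosomal stalk, with a difference of 1.28 (SE 0.25, adjusted p = 0.00633) and RPL20A with 1.37 (SE 0.34, adjusted p = 0.0384). At an unadjusted p under 0.05 there were 94 for pho92, and the difference was positive in 113 of 114 for pho92 and in 112 for ime4. The count for pho92 ran from 0 to 4 with 1 replicate left out and was 20 by DESeq2.

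At 5 h the median differences were near 0. In ime4 18 members were higher and 2 lower than in WT (median 0.25; 23.4% and 26.0% of all genes), and in pho92 6 were higher and 0 lower (−0.04; 17.3% and 16.3%). The pho92 count ran from 1 to 10 with 1 replicate left out.

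At 6 and 7 h most members were higher in the mutants, and a few were lower. At 6 h 75 were higher and 8 lower in ime4 (median 0.87; 43.6% and 34.5% of all genes) and 62 higher and 7 lower in pho92 (0.73; 37.8% and 33.0%). At 7 h 73 and 14 were so in ime4 (0.98; 44.9% and 37.5%) and 69 and 5 in pho92 (0.88; 34.7% and 28.1%). Scaling on total counts moved the median of all genes by 1.144 at 6 h and 1.78 at 7 h in ime4, and by 0.85 and 0.84 in pho92. The splits were then 103 and 4 at 6 h and 104 and 2 at 7 h in ime4, and 101 and 2 and 100 and 2 in pho92. With that scaling most of all 5822 genes were called higher too. In ime4 4258 were higher and 926 lower at 6 h, and 4490 and 713 at 7 h. In pho92 3965 were higher and 795 lower at 6 h, and 3908 and 416 at 7 h. RPS17B had 3.59, 4.11 and 4.22 CPM in WT at 6 h, 30.3, 35.2 and 14.6 in ime4 and 13.1, 14.3 and 22.9 in pho92, with no overlap (2.74, SE 0.39, adjusted p = 2.19e-08, and 2.07, SE 0.39, adjusted p = 1.03e-05). RPL30 (2.55 and 1.88) and RPS22A (2.36 and 1.79) were next in both, then RPS24B (2.13) and RPL37A (1.93) in ime4 and RPS29A (1.55) and RPL22B (1.45) in pho92. The 5 lowest at 6 h were RPS28B, RPL9A, RPL22A, RPL29 and RPL38 in ime4, from −2.39 to −1.39, and the same 5 genes in pho92, from −2.03 to −1.03. Both comparisons share the WT libraries. At 7 h in pho92 the 5 lower genes were RPS7B, RPL9A, RPL22A, RPL37B and RPS26A, while RPS28B (−0.33, adjusted p = 0.24), RPL29 (−0.09, adjusted p = 0.799) and RPL38 (−0.55, adjusted p = 0.0652) did not pass the test. For pho92 at 6 h the count of 69 became 39, 39 and 40 without WT replicate 2, pho92 replicate 3 and WT replicate 1.

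The change from 3 to 6 h differed from WT in 21 members in ime4 (8 higher, 13 lower; 36.1% and 29.3% of all genes; median difference 0.12) and in 11 in pho92 (3 and 8; 26.1% and 26.0%; 0.20). The lowest were RPS28B (−2.63), RPL9A (−2.58), RPL22A (−2.43), RPL33B (−2.09) and RPL29 (−1.90) in ime4, and RPL9A (−2.04), RPS28B (−1.82), RPL29 (−1.61) and RPL22A (−1.48) in pho92. With total counts, 62 and 4 differed in ime4 and 44 and 2 in pho92, as the median difference of all genes moved by 1.02 and 0.76. Of all 5822 genes 3898 were then higher and 854 lower in ime4, and 3371 and 653 in pho92. The median difference was then 1.11 for members and 1.24 for all genes in ime4, and 0.97 and 0.88 in pho92. Without pho92 replicate 2 the pho92 count became 5, without WT replicates 1 and 2 it became 6 each, and without pho92 replicate 3 it became 7.

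At 9 h nearly every ribosomal protein gene was lower in both mutants than in WT. In ime4 110 members were lower and 1 higher (median −3.31), against 33.3% and 46.9% of all genes, whose median was 0.31. In pho92 109 were lower and 1 higher (−2.26; 24.8% and 32.4%; median of all genes 0.07). The median member stood at 139.50 CPM in WT, 13.1 in ime4 and 31.0 in pho92.

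RPS22B, a small-subunit gene, had the largest gap in ime4. It had 216, 243 and 223.5 CPM in WT at 9 h, 6.08, 5.28 and 4.79 in ime4 and 51.3, 41.1 and 25.8 in pho92, and the 3 strains did not overlap (−5.40, SE 0.31, adjusted p = 3.92e-20 in ime4, and −2.53, SE 0.26, adjusted p = 7.83e-11 in pho92). RPS7A (−5.31, SE 0.44), RPS9B (−5.305, SE 0.41), RPS12 (−5.16, SE 0.42) and RPS17B (−5.003, SE 0.41) followed, all of the small subunit. In pho92 the lowest was RPS10A, with 11.5, 6.84 and 10.4 CPM against 166, 124 and 105 in WT (−3.78, SE 0.42, adjusted p = 4.18e-10), then RPS22A (−3.57, SE 0.43), RPL24A (−3.28, SE 0.39) and RPS7A (−3.22, SE 0.39). By class the medians were −3.37 for small-subunit, −3.33 for large-subunit and −2.68 for stalk genes in ime4, and −2.33, −2.20 and −2.21 in pho92.

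The gene that was higher in both was again RPL15B, with 184, 155 and 198 CPM in ime4, 89.3, 108 and 116 in pho92 and 67.8, 68.8 and 76.7 in WT, in 3 groups that did not overlap. It was higher by 1.33 in ime4 (SE 0.12, adjusted p = 2.46e-13) and by 0.55 in pho92 (SE 0.12, adjusted p = 0.000181), where with total counts the value was 0.10 and not called. RPP1A (−0.35, adjusted p = 0.0725), RPS28B and RPS7B (−0.64, adjusted p = 0.0652) did not pass the test in ime4, nor did RPL26A (−0.38), RPL29 (0.01), RPL33B (−0.18) and RPS7B (−0.28) in pho92. RPS7B had 85.2, 53.9 and 148 CPM in ime4 and 140.3, 112 and 117 in pho92 at 9 h, where WT had 179.5, 133 and 135.5.

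The interaction test, on the change from 6 to 9 h, called 107 members in ime4 (2 higher, 105 lower; 42.6% and 38.4% of all genes) with a median difference of −4.24, and 105 in pho92 (3 and 102; 36.9% and 37.1%) with −2.88. The change within ime4 was a fall in 102 members and a rise in 7 (median −1.65; 47.0% and 33.5% of all genes). Within pho92 33 fell and 17 rose (−0.19; 37.4% and 37.1%), and with total counts 86 fell and 3 rose. With total counts 3740 of all 5822 genes also fell and 828 rose, with a median of −0.97 against −1.20 for members. From 7 to 9 h 34 members were higher in all pho92 libraries and 11 lower (25.1% and 33.6% of all genes; median ratio 1.03), whereas in ime4 6 were higher and 64 lower (33.4% and 42.9%; 0.430) and in WT 107 were higher and 3 lower (36.4% and 47.8%; 9.72). In ime4 98 of 114 members had their lowest mean at 9 h.

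The strains also differed at these times in the level of NDT80, the gene for the factor that takes cells through the middle of meiosis. At 6, 7 and 9 h its mean was 5424, 6269 and 1014 CPM in WT, 432, 1010 and 3271 in ime4, and 1331, 3370 and 2497 in pho92. Thus at 9 h NDT80 was past its highest mean in WT, at its highest in ime4 and below its 7 h mean in pho92. Its part in the 9 h difference of the ribosomal protein genes was not tested.

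**Figure D5:**
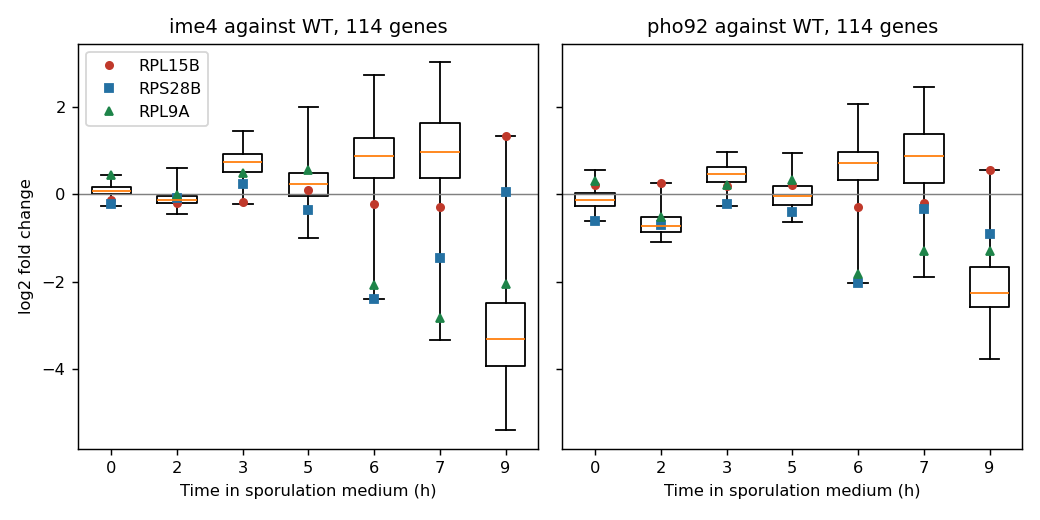
Log2 fold change of the 114 genes in ime4 and in pho92 against WT at each time. Boxes are quartiles with the median, whiskers run to the lowest and highest gene, and RPL15B, RPS28B and RPL9A are marked. The medians stay within 1 of no change to 7 h and lie at −3.31 in ime4 and −2.26 in pho92 at 9 h. With libraries scaled on total counts the 6 and 7 h medians were higher, at 1.98 and 2.78 in ime4 and 1.58 and 1.77 in pho92. The medians of all genes were then 1.35 and 1.98 in ime4 and 0.97 and 0.90 in pho92.

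Genes that act on ribosomal proteins moved less uniformly than the members. Of 15 regulators of their transcription, 5 rose and 6 fell in WT from 2 to 3 h (median −0.24), and 9 rose and 4 fell from 6 to 9 h (0.81). Of all genes 36.3% rose and 29.3% fell in the first step and 34.0% and 45.9% in the second, so the regulators' counts from 2 to 3 h lay near that background. At 9 h 4 were higher and 9 lower in ime4 (−0.51; 46.9% and 33.3% of all genes) and 5 and 7 in pho92 (−0.26; 32.4% and 24.8%). RAP1, the main activator, rose in the hour after copper (2.27, SE 0.19, adjusted p = 4.11e-14), as did FHL1 (1.40) and ABF1 (1.55), while IFH1 (−0.63), SFP1 (−0.55) and UTP22 (−1.52) fell. CRF1, which encodes a corepressor of these genes under TOR inhibition, fell by 4.32 (SE 0.27, adjusted p = 1.34e-17) and rose by 3.80 from 6 to 9 h, so it moved with the members: its means in WT were 144 CPM at 2 h, 7.18 at 3 h and 112 at 9 h, with 6.61 in ime4 and 75.4 in pho92 at 9 h. SFP1 and HMO1 rose from 6 to 9 h in WT (2.68 and 2.27) and were lower at 9 h in ime4 (−2.22 and −2.44) and, by less, in pho92 (−0.47 and −0.70). STB3, which encodes a repressor that binds RRPE, fell in that span (−1.65).

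Of 11 dedicated chaperones, which hold single ribosomal proteins until assembly, 1 rose and 5 fell from 2 to 3 h (median −0.50) and 8 rose and 3 fell from 6 to 9 h in WT (1.175). The shares of all genes just given are the background for these counts and for those of the next list, and at 9 h it was 46.9% higher and 33.3% lower in ime4 and 32.4% and 24.8% in pho92. At 9 h 3 were higher and 6 lower in ime4 (−1.20) and 1 and 5 in pho92 (−0.45). BCP1 (4.71, SE 0.30), which serves Rpl23, PUF6 (4.47, SE 0.41) and RRB1 (4.04, SE 0.36), which serves Rpl3, rose most from 6 to 9 h. Of 8 tested ribosome-associated factors, from a list of 10, 1 rose and 5 fell from 2 to 3 h (−0.50), 6 rose and 2 fell from 6 to 9 h (1.54), and at 9 h 1 was higher and 6 lower in each mutant (−1.99 in ime4, −1.09 in pho92). STM1, whose protein holds idle ribosomes together, fell by 3.49 after copper (SE 0.28, adjusted p = 1.01e-14) and rose by 4.30 from 6 to 9 h (SE 0.29), and ASC1, a core component of the small subunit outside the naming rule, changed by −0.43 and 0.96.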

How the data were processed

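Polyadenylated RNA of 63 libraries was made with a strand-marking kit and read as single 50-base reads, per the labels' protocols. The submitters' processing notes name bcl2fastq 2.17.1.14, TopHat2 2.0.14, Bowtie, HTSeq 0.6.1, R 3.5.1 and DESeq2 1.22.1. The strand setting, the treatment of reads with several matches and the genome build are not stated in any source used here. The deposited values used were raw counts per gene made by the authors; 126 columns of normalized values and 42 of comparisons were not used.

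Counts were fitted with edgeR 4.0.16 (quasi-likelihood test, TMM scaling, R 4.3.3). Genes passed a filter at a minimum count of 10, which kept 5822 and removed 266. One mean was fitted for each of 21 groups of 3 libraries (42 residual degrees of freedom, common biological coefficient of variation 0.184). P-values were adjusted by Benjamini-Hochberg over all 5822 genes, with calls made below 0.05. CPM are TMM-scaled counts divided by library size in the usual unit, and fold changes are log2. Scaling factors ran from 0.387 to 1.53. The p-values measure the spread between libraries called biological replicates. The log2 ratio of A to B copies, with 0.5 added to each count, was fitted with limma 3.58.1 over 52 pairs with a mean summed count of at least 50, adjusted over these. The scripts were tested on simulated data.

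Genes named in the text were those that went against the majority. Others were the extremes of each comparison, of the level, of the correlation and of the copy ratio. Some but not all of the called regulators were named, as were RPL15A, RPL15B, RPS26A and RPS26B. The members, these rules and the lists (regulators, chaperones, ribosome-associated factors, meiotic genes, haploid or mating genes) were chosen with earlier results of these data known. Sequences and coding spans come from the RefSeq copy of R64, whose start and end equalled those of the table for 109 of 114 genes. Promoter windows were cut from that genome, with motifs counted on both strands. Alternatives were RLE scaling, total counts, no filter, a fit to the compared libraries alone, DESeq2 1.42.0, the replicate number as a block, and each replicate left out. For pairs they were another pseudocount, minimum, trend and set of libraries, and for shares another denominator and the median. Values of 1 of the extreme genes and of its pair are not reported here.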

Additional observations from a re-analysis of the deposited data

Results flagged for a closer look

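Several differences between the strains in the same change over time passed a test of the difference itself. From 6 to 9 h the change differed from that of WT in 107 of the 114 genes in ime4 and in 105 in pho92, mostly lower (105 and 102), where 38.4% and 37.1% of all genes were lower and 42.6% and 36.9% higher. RPL15B and RPS28B were the members whose change was higher in ime4 than in WT (1.55, SE 0.17, and 2.45, SE 0.36), and RPL15B (0.83), RPS28B (1.13) and RPL29 (1.33) in pho92. RPS7A had a difference of −6.77 (SE 0.57) in ime4 and −4.09 (SE 0.54) in pho92. From 3 to 6 h the change differed in 21 genes in ime4 and in 11 in pho92, a smaller share than among all genes, of which 36.1% were higher and 29.3% lower in ime4 and 26.1% and 26.0% in pho92. From 2 to 3 h it differed in 2 genes in pho92, RPP1A and RPL20A, where 0.137% of all genes were higher and 0.515% lower.

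The log2 ratio of the ribosomal protein share of counts at 9 h to that at 7 h was −1.81 in ime4, where all 9 h libraries lay below all 7 h libraries, and 3.53 in WT, where all 9 h libraries lay above all 7 h libraries. That difference between shares was not tested.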

How the results depend on the processing

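Of 765 values of 71 named results under the alternatives, 710 kept their direction and side of the threshold, 50 lost the call, 2 gained it and 3 changed sign: with total counts from 3 to 6 h in WT, RPL9B became −0.55, RPS28A −0.54 and RPL15B −0.67. With total counts the members called became 42 for WT 2 against 0 h, 22 each for ime4 and pho92 6 against 3 h and 89 for pho92 9 against 6 h. Against WT they became 2, 3 and 11 in pho92 at 2, 3 and 5 h, and for the difference in change 66 in ime4 and 46 in pho92 from 3 to 6 h and 1 in pho92 from 2 to 3 h. The calls among all 5822 genes moved as well. They became 828 higher and 3740 lower for pho92 9 against 6 h. For the difference from 3 to 6 h they became 3898 and 854 in ime4 and 3371 and 653 in pho92. Fitting only the libraries being compared gave 25 for ime4 6 against 3 h, 96 and 31 in ime4 against WT at 3 and 5 h, 0, 63 and 15 in pho92 against WT at 2, 3 and 5 h, 1 each for the difference from 2 to 3 h, and 20 for pho92 from 3 to 6 h. DESeq2 gave 53 in pho92 against WT at 2 h and 2 and 20 for the difference from 2 to 3 h in ime4 and pho92, and RLE scaling gave 4 in pho92 at 3 h. The cause of these shifts was not tested.

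The log2 share ratio by the median of member CPM was −2.69 for WT 3 to 2 h, −1.001 for ime4 9 to 7 h and 0.25 for pho92 9 to 7 h, and without the 100 most abundant other genes it was 3.23 for WT 9 to 7 h and 0.24 for pho92 9 to 7 h. Leaving out 1 replicate, the pho92 ratio ran from −0.39 to 0.25, positive without pho92 replicate 3. Counts then ran from 33 to 71 for WT 2 against 0 h, 29 to 41 for WT 6 against 3 h, 13 to 46 for ime4 and 27 to 62 for pho92 6 against 3 h, and 10 to 69 in ime4 against WT at 3 h. In pho92 against WT they ran from 0 to 4 at 0 h, 0 to 60 at 2 h, 1 to 6 at 3 h, 1 to 10 at 5 h and 39 to 77 at 6 h, and for the pho92 difference in change from 0 to 4 (2 to 3 h) and 5 to 14 (3 to 6 h).

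Same-numbered libraries of different groups correlated in their deviations with r of −0.775 to 0.831 (median 0.0178, n = 630 pairs). For other numbers r ran from −0.831 to 0.747 (median −0.0138, n = 1260). The best match had its own number in 34 of 63 libraries. These pairs mix the strains. Within strains the share of counts kept some order. In pho92 replicate 3 was highest at 2, 3, 5, 6 and 7 h but not at 0 or 9 h. In ime4 replicate 2 was highest from 3 to 9 h but not at 0 or 2 h. Whether 1 culture was followed over time was not tested, and the tests treated all libraries as independent. With the replicate number as a block the counts within WT were 114 for 3 against 2 h, 47 for 6 against 3 h and 111 for 9 against 6 h. Against WT they were 56 in ime4 at 3 h and 71 in pho92 at 6 h. The block moved no count of calls by over 1.5 times. It was shared by the strains, so it could not take up a culture followed over time in 1 strain. Low counts limit genes such as RPS17B at 6 h in WT.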
